A study of Mus musculus with 39 samples.

Results

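Deletion of Smad4 in the endothelium was examined in mouse pups that also received a control antibody. The members are the 6 libraries of the table made for the control IgG experiment, 3 mutants and 3 wild types, out of 39 libraries in the series, and every gene of that table was used. The mutants (Smad4f/f; Cdh5-CreERT2) carry floxed Smad4 and a tamoxifen-inducible Cre recombinase under the promoter of the endothelial cadherin gene Cdh5, and the wild types (Smad4f/f) carry the floxed gene with no Cre. Both groups are C57BL/6 pups, received 300 µg tamoxifen on postnatal days 1 to 3 and 30 µg IgG on days 2 and 4, and were taken at postnatal day 7. Whole brains were dissociated, cells were captured on beads with a PECAM antibody, and their messenger RNA was sequenced. A further 10 libraries of the same alleles, tamoxifen course and age without an antibody, 5 mutants and 5 wild types, serve as the comparison cohort and are called the untreated cohort. The question is what loss of Smad4 does to the transcriptome of brain endothelial cells when the pups carry the antibody treatment that serves as the control for an inhibitor of angiopoietin-2. Values are the deposited normalized values per gene, and a change is the difference of group means of log2(value + 2), mutant minus wild type, with its standard error (SE).

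SMAD4 is the shared partner that carries receptor-activated SMAD proteins to their target genes. In endothelial cells it acts downstream of the circulating ligand BMP9, the receptor ALK1 (gene symbol Acvrl1) and the co-receptor endoglin (Eng), and the ID genes are its classical targets. Mutations in SMAD4, ALK1 or endoglin cause hereditary haemorrhagic telangiectasia, a disease of arteriovenous malformations, and loss of the pathway in neonatal mouse endothelium is used as its model.

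The 6 libraries had an inferred depth of 13.9 to 19.1 M fragments and 16623 to 17065 genes above 0. Pearson correlations between libraries, across 13939 genes that are not independent replicates, ran from 0.965 to 0.988. The labels do not say whether the libraries of a group came from separate animals, so that p-values measure the spread between these samples. Wild type 1 had 19.5 for Xist and 4590 for the Y-linked Ddx3y, whereas the other 5 libraries had 62087 to 72294 for Xist and 0 for Ddx3y. With Xist as a covariate 1464 genes were called in place of the 2480 given below. Endothelial markers, 15 genes including Pecam1, Cdh5 and Cldn5, summed to 529995 to 544882 in the mutants, against 538235 to 562014 in the wild types, and each of the 15 was above 0 in every library. In the test described below, 2 of the 15 were called higher and 4 lower, 40% beside 17.8% of all genes tested. The fall of Flt1 alone kept its call without each library in turn.

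The targeted gene itself was lower in all 3 mutant libraries. Smad4 (GRCm38, chromosome 18, 73639009 to 73703780, minus strand) had 3030, 2099 and 1817 in IgG mutants 1 to 3 and 5975, 5945 and 5625 in IgG wild types 1 to 3. The groups did not overlap, and mutant 1 kept the highest level of the mutants. The change was -1.37 ± 0.16 (SE, log2, n = 3 each; limma with Benjamini-Hochberg adjustment over all genes tested, adjusted p = 0.00473), and leaving out any 1 library gave -1.58 to -1.21. Which part of Smad4 is floxed is not given in the sources used here, and in bulk samples fewer cells of a type and less RNA per cell cannot be told apart.

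Of 13939 genes tested, 2480 (17.8%) passed an adjusted p of 0.05, 1348 of them higher (9.67%) and 1132 lower (8.12%) in the mutants. Of the called genes, 119 were higher by at least 2-fold (0.854% of all genes tested) and 335 were lower by at least 2-fold (2.40%). With division by the library total, the share of calls that were higher was 44.8% in place of 54.4%. The number of calls depended on single libraries, with 471 genes without mutant 2, 3073 without mutant 1, 1315 without mutant 3, 1450 without wild type 1, 878 without wild type 2 and 1219 without wild type 3. A core of 433 genes (3.11%) was called with all 6 libraries and again without each library in turn, 246 higher (1.76%) and 187 lower (1.34%). Genes of this core are called stable below. Most list counts below were lowest without mutant 2. For most other named genes the libraries whose omission ended the call are given. Some stable genes lost the call when the untreated libraries were added to the fit as groups of their own, and these adjusted p-values are given beside them. All gene lists below were chosen with earlier results of these data known. Their counts are to be read beside the 9.67% higher, 8.12% lower and 17.8% either way of all genes tested.

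The 3 mutants did not lie at one distance from the wild types. Mutant 1 was nearest to the wild types in 68.9% of the 2480 called genes, mutant 2 in 17.2% and mutant 3 in 13.9%. Mutant 3 was the farthest in 62.7%, mutant 2 in 26.2% and mutant 1 in 11%. The same order appears in the Smad4 values above, where mutant 1 is highest and mutant 3 lowest.

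**Figure D1:**
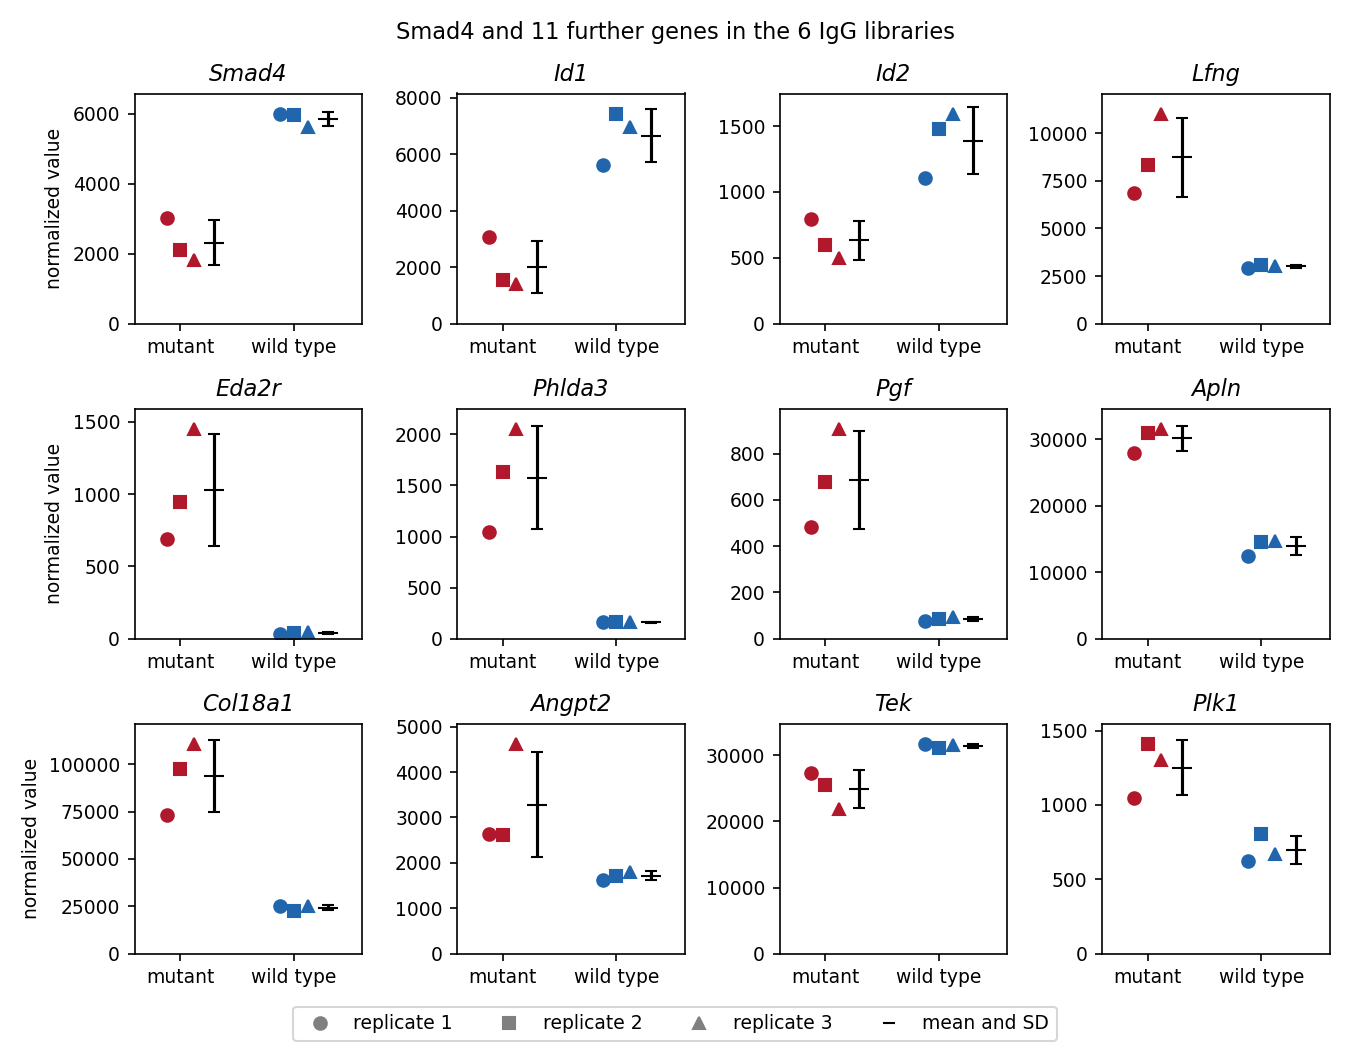
Deposited normalized values (linear axes from 0) of Smad4 and 11 other genes in the 3 IgG mutants (left, red) and 3 IgG wild types (right, blue); symbols give the replicate number, and the dash with bars is the mean with 1 SD. Smad4 lies between 1817 and 3030 in the mutants and between 5625 and 5975 in the wild types, and no panel shows an overlap of the groups.

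The genes of the BMP9 response included more falls than rises. Of 19 tested members of this list, 7 fell, beside 8.12% of all genes, 3 rose and 9 did not pass, with a median change of -0.39 beside a median of 0.003 over all genes tested. The falls numbered 1 without mutant 2, 4 without wild type 1 or wild type 2, and 6 to 9 without each other library. Id1, an inhibitor of basic helix-loop-helix factors and the best known BMP9 target, had 3057, 1546 and 1416 in mutants 1 to 3 and 5620, 7406 and 6947 in wild types 1 to 3. Every mutant lay below every wild type, and mutants 2 and 3 were nearly level. The change of -1.81 ± 0.27 (adjusted p = 0.00848) was stable.

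The other ID genes moved the same way by less. Id2 had 795, 599 and 501 in mutants 1 to 3 and 1102, 1475 and 1588 in the wild types, a change of -1.14 ± 0.19 (adjusted p = 0.0114, and 0.0563 without mutant 2). Id3 had 5218, 4167 and 4225 in the mutants and 6163, 8032 and 7135 in the wild types, a change of -0.65 ± 0.12 (adjusted p = 0.014, and 0.0651 without mutant 2). Neither gene had overlapping groups. Id4 was low throughout, at 35.2 to 77.7 in the mutants, against 92.6 to 128 in the wild types, and did not pass (adjusted p = 0.08).

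The 5′ ends of Id2 and of Smad6, an inhibitory SMAD that the pathway itself induces, are shown because both genes were lower and each holds a motif known to be bound by SMAD proteins, and they were picked for that match. Smad6 had 1713, 1399 and 1445 in the mutants and 1919, 2396 and 1916 in the wild types, groups that did not overlap, with a change of -0.45 ± 0.11 (adjusted p = 0.0335). That call was lost without mutant 2 (0.118), mutant 3 (0.0831), wild type 1 (0.0515), wild type 2 (0.0873) or wild type 3 (0.0552). The sequences are from RefSeq (GRCm38.p6, 250 bases before to 50 after the gene start, minus strand for both), and capitals mark GGCGCC, a motif of SMAD1 and SMAD5, in Id2 (chr12:25096043-25096342) and GTCTAGAC, a motif of SMAD3 and SMAD4, in Smad6 (chr9:64022010-64022309).
Id2: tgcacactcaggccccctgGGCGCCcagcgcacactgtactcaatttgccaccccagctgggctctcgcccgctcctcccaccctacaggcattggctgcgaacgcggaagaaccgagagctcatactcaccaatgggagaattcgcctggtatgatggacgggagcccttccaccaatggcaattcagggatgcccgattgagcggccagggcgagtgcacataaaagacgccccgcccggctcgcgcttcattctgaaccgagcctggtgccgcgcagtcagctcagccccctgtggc
Smad6: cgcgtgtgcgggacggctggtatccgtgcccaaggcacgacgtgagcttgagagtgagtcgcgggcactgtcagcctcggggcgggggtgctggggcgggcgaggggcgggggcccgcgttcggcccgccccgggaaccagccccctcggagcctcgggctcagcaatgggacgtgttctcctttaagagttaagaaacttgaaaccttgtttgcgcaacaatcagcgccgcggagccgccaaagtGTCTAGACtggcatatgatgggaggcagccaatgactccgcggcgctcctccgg

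Both motifs read the same on both strands. GGCGCC was present in 24.4% of the 10921 tested genes with a promoter in the table. Among the 861 of them called lower the share was 24.6%, close to that background. It was present in 11.9% of all 32851 promoters in the table, a share of promoters and not of genes. GTCTAGAC was present in 0.32% of the tested genes with a promoter and in 0.465% of those called lower. In Id2 the motif begins 231 bases before the start, and in Smad6 it begins 4 bases before it and spans it.

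Receptors and transducers around SMAD4 changed in both directions. Of 18 tested receptors and SMADs, 3 rose and 6 fell, Smad4 included, with a median of -0.17. Smad1, which together with SMAD4 relays the BMP signal, had 4107, 4537 and 4471 in the mutants and 2908, 2870 and 2673 in the wild types (0.63 ± 0.06, adjusted p = 0.00249). Its close relative Smad5 had 11392, 11600 and 11566 in the mutants and 8724, 8697 and 8983 in the wild types (0.39 ± 0.04, adjusted p = 0.00359). The groups were tight and apart for both genes, and both calls were stable.

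The type I BMP receptor Bmpr1a had 444, 424 and 341 in the mutants and 812, 833 and 717 in the wild types, a stable change of -0.97 ± 0.12 (adjusted p = 0.00532, and 0.203 with the untreated libraries in the fit). Eng had 63318, 59770 and 63903 in the mutants and 55051, 51977 and 50263 in the wild types. The groups did not overlap, but the change was small, at 0.25 ± 0.07 (adjusted p = 0.0441), and the call was lost without mutant 1 (0.0549), mutant 2 (0.114), mutant 3 (0.0934), wild type 1 (0.0548), wild type 2 (0.133) or wild type 3 (0.133). Acvrl1 did not pass, with 18581, 18346 and 19379 in the mutants and 17641, 17295 and 16625 in the wild types (0.13, adjusted p = 0.117).

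Angiopoietin-2, the TIE2 ligand that the inhibitor of the wider experiment targets, was higher in the mutants given IgG. Angpt2 had 2627, 2614 and 4609 in mutants 1 to 3 and 1621, 1719 and 1809 in the wild types. All mutants lay above all wild types, and mutant 3 stood far above the other 2. The change was 0.88 ± 0.20 (adjusted p = 0.0271). The call was lost without mutant 2 (0.0586), wild type 1 (0.0699), wild type 2 (0.0808) or wild type 3 (0.0607). It was also lost with no intensity trend, with a robust estimate of the spread, with Xist as a covariate and with the untreated libraries in the fit. The highest adjusted p of Angpt2 over the settings run was 0.21 (limma).

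Tek, which encodes the receptor TIE2, was lower, with 27362, 25521 and 21840 in the mutants and 31661, 31103 and 31560 in the wild types. The wild types were nearly level and the mutants spread below them. The change of -0.34 ± 0.08 (adjusted p = 0.0333) was lost without mutant 2 (0.1), wild type 1 (0.076), wild type 2 (0.0921) or wild type 3 (0.0832). Of the 12 tested genes of the angiopoietin-TIE list, 1 rose and 2 fell (median -0.07), and none of the 3 calls was stable. The called share was 25%, beside 17.8% of all genes tested. The agonist ligand Angpt1 was the other gene to fall (-0.80, adjusted p = 0.0346), a call lost without mutant 2 (0.102), mutant 3 (0.0556), wild type 1 (0.0804), wild type 2 (0.0943) or wild type 3 (0.0837).

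Among VEGF ligands and receptors the ligand Pgf rose and the receptor Flt1, which binds it, fell. Pgf (placental growth factor) had 482, 678 and 905 in mutants 1 to 3 and 77.6, 85.1 and 92.4 in the wild types, a stable change of 2.94 ± 0.22 (adjusted p = 0.00179). Flt1 had 54267, 50622 and 51291 in the mutants and 75416, 70455 and 73219 in the wild types (-0.49 ± 0.07, adjusted p = 0.00699), also stable. The main signalling receptor Kdr did not pass, with 90404, 88589 and 90280 in the mutants and 90326, 95821 and 97317 in the wild types. In all, 2 of the 11 tested members rose and 2 fell (median -0.04).

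Among genes that mark tip cells and sprouting, every call was a rise. Of 24 tested members, 13 rose and none fell, with a median of 0.54, and 7 of the rises were stable, those of Apln, Chst1, Lama4, Lxn, Mcam, Pgf and Trp53i11 (for Trp53i11, adjusted p = 0.0548 with the untreated libraries in the fit). The rises numbered 7 without mutant 2 and 8 without wild type 2. Apln, the apelin ligand made by sprouting endothelium, had 27918, 30929 and 31448 in the mutants and 12420, 14565 and 14750 in the wild types. The lowest mutant lay far above the highest wild type, with a change of 1.12 ± 0.08 (adjusted p = 0.00179). The tip cell genes Dll4 and Esm1 did not pass, with 9230 to 9281 for Dll4 in the mutants, against 8569 to 10544 in the wild types, and 574 to 783 for Esm1 in the mutants, against 458 to 613 in the wild types.

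In the Notch list, 4 of 15 tested genes rose and 1 fell (median 0.12), 33.3% called beside 17.8% of all genes tested. The fringe enzyme Lfng, which modifies Notch receptors and is also on the BMP9 list, had 6883, 8329 and 10992 in mutants 1 to 3 and 2901, 3082 and 3043 in the wild types. The wild types lay within a narrow range and every mutant lay far above it, for a stable change of 1.51 ± 0.15 (adjusted p = 0.0027). The ligand Dll1 rose by 0.84 ± 0.10 (adjusted p = 0.00467) and the fringe Mfng by 0.33 ± 0.06 (adjusted p = 0.0117, and 0.0607 with the untreated libraries in the fit), both stable. The target gene Hey1 fell by 0.39 on the log2 scale (adjusted p = 0.0239), a call lost without mutant 2 (0.0806), wild type 1 (0.059) or wild type 2 (0.0696).

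Few arterial or venous identity genes changed in a stable way. The called shares were 22.2% of arterial and 35.7% of venous genes, beside 17.8% of all genes tested. Of 18 arterial genes, 1 rose and 3 fell (median -0.04), and the stable one was Cytl1, with 286, 276 and 244 in the mutants and 125, 73.5 and 91.5 in the wild types (1.49 ± 0.21, adjusted p = 0.00735). Of 14 venous genes, 5 fell and none rose (median -0.20), with a stable fall of the interleukin-1 receptor Il1r1 among them (-0.68 ± 0.10, adjusted p = 0.00765). Il1r1 had 1644, 1542 and 1565 in the mutants and 2916, 2507 and 2216 in the wild types, groups that did not overlap.

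The largest rises of the whole comparison included targets of p53, the transcription factor that answers DNA damage and other stress with cell cycle arrest and cell death genes. The p53 target list was built with results of these data known, so its direction is no independent evidence. Of its 40 members, all tested, 21 rose, 1 fell and 18 did not pass, with a median of 0.79. The rises of 14 members were stable, namely Aen, Bax, Bbc3, Ccng1, Dcxr, Eda2r, Ephx1, Gdf15, Gtse1, Phlda3, Sesn2, Tnfrsf10b, Zfp365 and Zmat3.

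Eda2r, a death receptor family member (GRCm38, chromosome X, 97333840 to 97377216), led the 10 largest rises among called genes with a mean of at least 100 in the higher group. Its values were 689, 943 and 1448 in mutants 1 to 3 and 35.1, 39.6 and 46.1 in the wild types, a change of 4.55 ± 0.26 (adjusted p = 0.000922). Phlda3, an inhibitor of AKT, had 1046, 1627 and 2048 in the mutants and 160, 168 and 159 in the wild types (3.21 ± 0.22, adjusted p = 0.00136). For both genes mutant 1 was lowest and mutant 3 highest of the mutants, and the wild types barely differed.

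The stress cytokine Gdf15 had 143, 229 and 642 in the mutants and 34.1, 39.3 and 33.6 in the wild types (2.89 ± 0.49, adjusted p = 0.0117). The cell cycle inhibitor Cdkn1a had 4880, 6209 and 9277 in the mutants and 4677, 2796 and 2535 in the wild types. Mutant 1 lay just above wild type 1 for Cdkn1a, and its change of 1.03 ± 0.28 (adjusted p = 0.0434) was lost without mutant 2 (0.115), mutant 3 (0.0934), wild type 2 (0.129) or wild type 3 (0.111). The p53 inhibitor Mdm2 had 1805, 2081 and 2516 in the mutants and 1614, 1560 and 1540 in the wild types (0.43, adjusted p = 0.0382), lost without mutant 2 (0.11), mutant 3 (0.0541), wild type 1 (0.0743), wild type 2 (0.105) or wild type 3 (0.0916).

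Promoters of Ccng1 and Aen were picked as examples of stable rises with a match to the decamer of the p53 response element, marked in capitals. Ccng1, a cyclin family member, had 2437, 3068 and 4121 in the mutants and 1355, 1296 and 1136 in the wild types (1.32 ± 0.17, adjusted p = 0.00594). Aen, a nuclease of apoptotic cells, had 1528, 1691 and 2202 in the mutants and 708, 776 and 737 in the wild types (1.27 ± 0.13, adjusted p = 0.0029). The windows are chr11:40755237-40755536 on the minus strand for Ccng1 and chr7:78895808-78896107 on the plus strand for Aen, from RefSeq (GRCm38.p6).
Ccng1: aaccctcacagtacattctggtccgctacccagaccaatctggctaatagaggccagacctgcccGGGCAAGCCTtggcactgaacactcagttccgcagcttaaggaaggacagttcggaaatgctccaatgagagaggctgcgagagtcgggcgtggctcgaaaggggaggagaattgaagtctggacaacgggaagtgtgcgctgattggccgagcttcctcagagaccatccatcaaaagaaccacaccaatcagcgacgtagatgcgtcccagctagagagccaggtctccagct
Aen: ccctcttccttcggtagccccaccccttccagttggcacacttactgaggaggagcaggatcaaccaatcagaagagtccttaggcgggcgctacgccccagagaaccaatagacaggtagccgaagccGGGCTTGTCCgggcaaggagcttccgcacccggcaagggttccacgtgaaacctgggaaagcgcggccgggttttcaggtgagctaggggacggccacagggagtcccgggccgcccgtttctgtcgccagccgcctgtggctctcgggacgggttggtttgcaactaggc

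The decamer was searched on both strands. It was present in 8.36% of the tested genes with a promoter in the table. Among the 1074 genes called higher that had a promoter there, the share was 8.94%. Among p53 list members it was present in 10 of the 30 with a promoter in the table, and in 8 of the 18 among those called higher. Over the higher genes as a whole its share was therefore close to that of the background.

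Cell cycle genes had the largest share of calls of the 28 pathway lists. Of 43 tested members, 35 rose, 1 fell and 7 did not pass, with a median of 0.56, although no member changed 2-fold. The mitotic kinase Plk1 had 1047, 1407 and 1300 in the mutants and 622, 805 and 669 in the wild types, groups that did not overlap (0.84 ± 0.13, adjusted p = 0.0103). The replication factor Mcm5 had 2814, 3216 and 3094 in the mutants and 1721, 2307 and 1924 in the wild types (0.62 ± 0.11, adjusted p = 0.0122, and 0.0608 without mutant 2). Every mutant lay above every wild type for 40 of the 43 members, as it did for 22.3% of all tested genes.

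The number of cell cycle genes that passed rested on single libraries. It was 2 without mutant 2, namely Plk1 and Ccnd1, then 14 without mutant 3, 15 without wild type 3, 19 without wild type 1, 26 without wild type 2 and 37 without mutant 1. The G1 cyclin Ccnd1 had 19036, 17452 and 20946 in the mutants and 12978, 14969 and 14391 in the wild types (0.44 ± 0.08, adjusted p = 0.0156). The 1 member to fall was the cyclin gene Ccnd2 (-0.40, adjusted p = 0.0407), a call lost without mutant 2 (0.134), mutant 3 (0.0912), wild type 1 (0.0724), wild type 2 (0.118) or wild type 3 (0.0958).

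**Figure D2:**
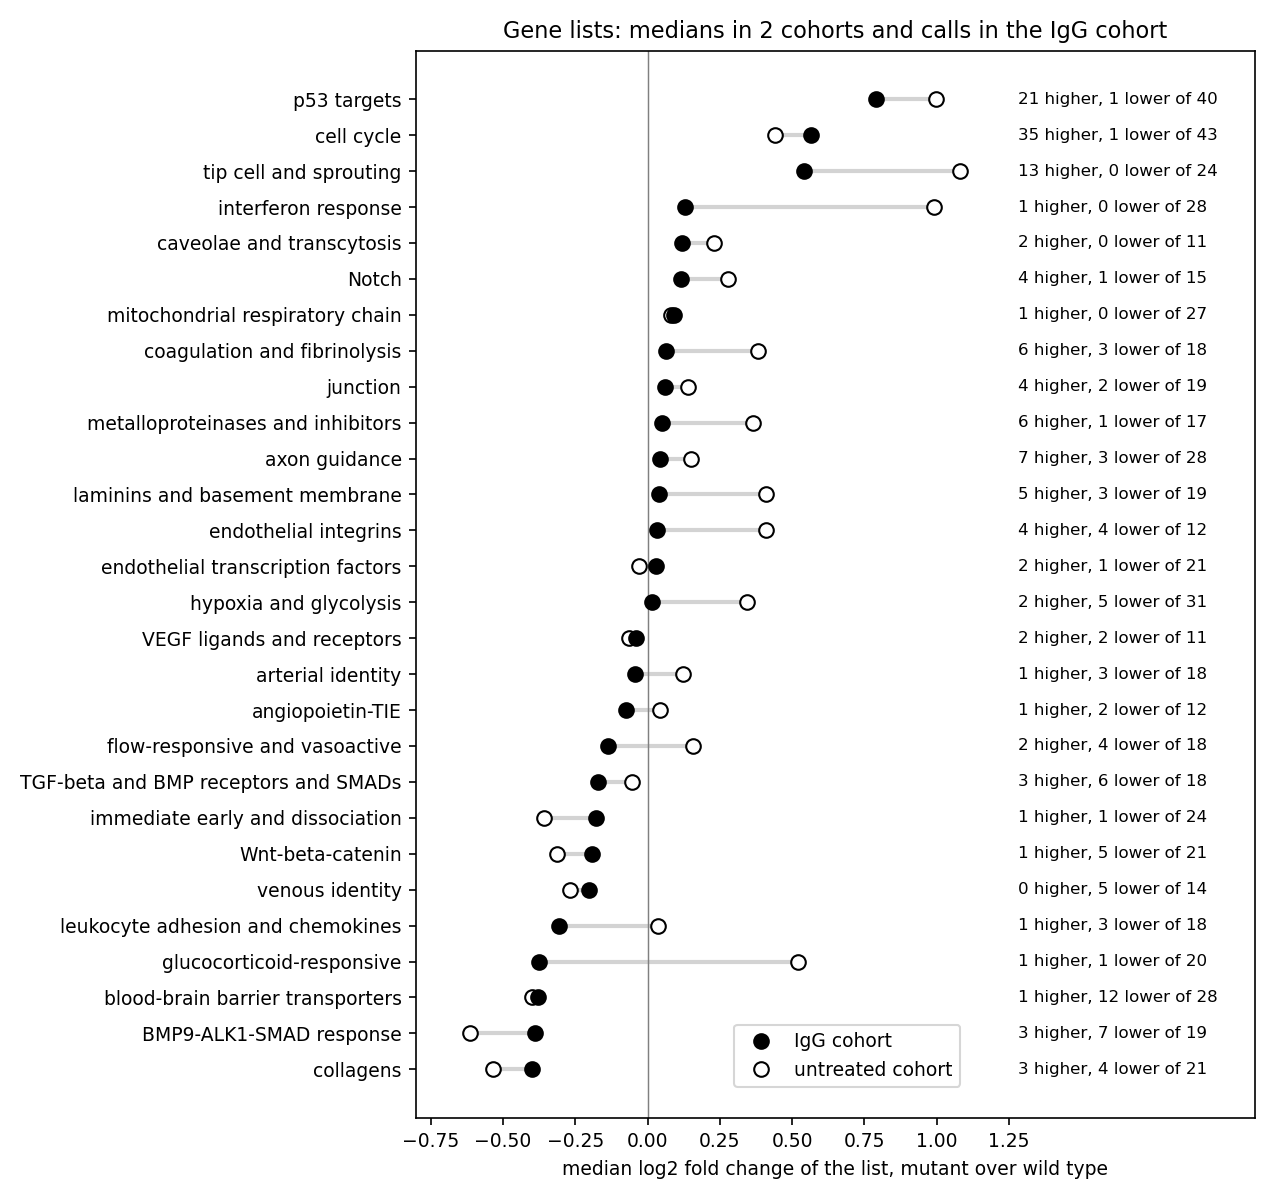
Median log2 fold change, mutant over wild type, of 28 pathway gene lists in the IgG cohort (filled) and in the untreated cohort (open), with the number of members called higher and lower in the IgG cohort printed at the right. The p53, cell cycle and tip cell lists have the highest IgG medians (0.79, 0.56 and 0.54), and the interferon and glucocorticoid lists show wide gaps between the cohorts.

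Among transporters of the blood-brain barrier, falls outnumbered rises. Of 28 tested members, 12 fell, 1 rose and 15 did not pass, with a median of -0.38, and the falls numbered 3 without mutant 2 and 6 without wild type 2. Slc19a3, a thiamine transporter, had 1501, 1407 and 1357 in the mutants and 2072, 2013 and 2116 in the wild types (-0.54 ± 0.06, adjusted p = 0.00347). The efflux pumps Abcc4 (-0.51 ± 0.06, adjusted p = 0.00491) and Abcg2 (-0.50 ± 0.07, adjusted p = 0.0058) were the other 2 stable falls. Abcg2 had 7164, 6449 and 6194 in the mutants and 9346, 9737 and 8961 in the wild types.

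A larger fall in this list, that of Slc16a1, was less even among the mutants. The lactate transporter Slc16a1 had 95058, 84889 and 61514 in the mutants and 148059, 132617 and 146369 in the wild types (-0.84 ± 0.16, adjusted p = 0.0152, and 0.0613 without mutant 2). The glucose transporter Slc2a1 did not pass, with 75578, 73776 and 85557 in the mutants and 77600, 66945 and 55306 in the wild types, so that its groups overlapped. The lipid transporter Mfsd2a, a barrier gene, had 32402, 25935 and 25105 in the mutants and 34617, 36016 and 33033 in the wild types and missed the threshold (adjusted p = 0.062).

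Junction genes were divided. Of 19 tested, 4 rose and 2 fell (median 0.06), 31.6% called beside 17.8% of all genes tested, and no call was stable. Tight junction gene Ocln had 6914, 6260 and 5678 in the mutants and 8483, 8156 and 8330 in the wild types (-0.41 ± 0.07, adjusted p = 0.0132, and 0.0619 without mutant 2). Jam2 fell by 0.55 on the log2 scale (adjusted p = 0.0122, and 0.0606 without mutant 2). Cldn5, the most typical claudin of brain endothelium, had 108486 to 112095 in the mutants, against 102930 to 112894 in the wild types and did not pass (adjusted p = 0.824).

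Wnt-beta-catenin signalling induces and maintains the barrier, and 5 of its 21 tested genes fell while 1 rose (median -0.19), with no stable call. The called share was 28.6%, beside 17.8% of all genes tested. The secreted Wnt inhibitor Notum had 2283, 1540 and 1288 in the mutants and 3140, 3088 and 3295 in the wild types (-0.94 ± 0.18, adjusted p = 0.0169). Its call was lost without mutant 2 (0.0747), wild type 2 (0.0551) or wild type 3 (0.0507). The pathway's common target Axin2 did not pass, with 3130 to 4125 in the mutants, against 3042 to 3866 in the wild types. In the caveolae list 2 of 11 genes rose and none fell (median 0.12), neither of them stable. That share, 18.2%, was close to the 17.8% of all genes tested.

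Matrix genes changed in both directions. The called shares were 33.3% of collagen genes and 42.1% of laminin and basement membrane genes, beside 17.8% of all genes tested. Col18a1, whose product yields endostatin, had 73091, 97473 and 110415 in mutants 1 to 3 and 24984, 22674 and 25358 in the wild types (1.92 ± 0.14, adjusted p = 0.00179), a stable call. Of 21 collagen genes, 3 rose and 4 fell (median -0.40), and the other stable call was the fall of Col1a1, a collagen of fibroblasts (-0.74 ± 0.09, adjusted p = 0.00422, and 0.287 with the untreated libraries in the fit). Among 19 laminin and basement membrane genes, 5 rose and 3 fell (median 0.04). Lama4, the laminin chain of endothelial basement membrane, had 35850, 36000 and 40023 in the mutants and 25627, 24548 and 25969 in the wild types (0.55 ± 0.06, adjusted p = 0.0043).

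The integrin receptors of the matrix were split, with 4 of 12 higher and 4 lower (median 0.03), 66.7% called beside 17.8% of all genes. The fibronectin receptor chain Itga5 rose, with 13300, 13605 and 15197 in the mutants and 9257, 9510 and 9181 in the wild types (0.59 ± 0.06, adjusted p = 0.00303). The collagen receptor chain Itga2 fell, with 1190, 1216 and 935 in the mutants and 1876, 1543 and 1955 in the wild types (-0.69 ± 0.13, adjusted p = 0.0145). Both were stable, and in neither did the groups overlap.

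Of 17 metalloproteinases and inhibitors, 6 rose and 1 fell (median 0.05), and 5 of the rises were stable. Adam12 had 1462, 2540 and 2650 in the mutants and 497, 432 and 542 in the wild types (2.13 ± 0.22, adjusted p = 0.00298). The inhibitor Timp1 had 480, 641 and 684 in the mutants and 312, 314 and 279 in the wild types (0.98 ± 0.15, adjusted p = 0.00844). Adam15, Adamts4 and Mmp14 were the other stable rises, of 0.49, 0.53 and 0.38.

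Receptors and ligands of axon guidance, which also steer vessels, had 7 rises and 3 falls among 28 tested (median 0.04). The called share was 35.7%, beside 17.8% of all genes tested. The ephrin receptor Epha2 had 5464, 5230 and 6716 in the mutants and 2253, 2829 and 2521 in the wild types (1.19 ± 0.11, adjusted p = 0.00249). Sema3c, a secreted semaphorin, had 1953, 1219 and 1238 in the mutants and 3841, 3461 and 2859 in the wild types (-1.23 ± 0.19, adjusted p = 0.00929). Both were stable, as were the rises of the plexin receptors Plxnd1 (0.42) and Plxnb1 (0.32).

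The coagulation and fibrinolysis list had 6 rises and 3 falls among 18 genes (median 0.06). Transcripts of both subunits of the annexin A2 complex, which assembles the plasmin system at the cell surface, rose. Anxa2 had 12439, 14513 and 15478 in the mutants and 7369, 7951 and 7883 in the wild types (0.87 ± 0.08, adjusted p = 0.00258), and its partner S100a10 had 543, 660 and 655 in the mutants and 239, 199 and 254 in the wild types (1.42 ± 0.13, adjusted p = 0.00249). The thrombin receptor F2rl3 rose by 1.27 ± 0.12 (adjusted p = 0.00249), a stable call.

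Flow-responsive and vasoactive genes had 2 rises and 4 falls among 18 (median -0.14), 33.3% called beside 17.8% of all genes tested. The mechanosensitive channel Piezo1 had 23016, 23565 and 23217 in the mutants and 19053, 17588 and 17548 in the wild types (0.37 ± 0.05, adjusted p = 0.00832). The prostaglandin synthase Ptgs2 had 543, 321 and 438 in the mutants and 1709, 1222 and 1053 in the wild types (-1.61 ± 0.23, adjusted p = 0.00735), and both calls were stable. Klf2, the best known flow-induced factor, had 9710 to 12308 in the mutants, against 9841 to 12861 in the wild types and did not pass.

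Other genes among the 10 largest rises, all with no overlap between the groups, belong to none of the lists. The phosphatase gene Ppef1 had 201, 337 and 389 in the mutants and 21.6, 36.0 and 37.7 in the wild types (3.19 ± 0.31, adjusted p = 0.0027). Prrg4 rose by 2.45 and the long non-coding RNA Pvt1 by 2.45, both stable. Ptprv, a receptor-type phosphatase gene, had 120, 236 and 348 in the mutants and 15.6, 18.9 and 6.43 in the wild types. It passed the minimum of 20 through the mutants alone, so its values are given with no fold or test.

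The 10 largest falls, Id1 among them, included the matrix glycoprotein Tnc, with 584, 557 and 374 in the mutants and 1480, 1626 and 1794 in the wild types (-1.71 ± 0.17, adjusted p = 0.0027). Stable falls were also found for the sodium-proton exchanger Slc9a2 (-1.97), the kinase anchoring gene Sphkap (-1.85), Syngr1 (-1.81), a synaptic vesicle gene, and the secreted phosphoprotein Spp1 (-1.76, adjusted p = 0.0712 with the untreated libraries in the fit). Best1, a chloride channel gene, had 288, 169 and 79.3 in the mutants and 929, 625 and 766 in the wild types (-2.26 ± 0.41, adjusted p = 0.0143, and 0.0606 without mutant 2). Ddc, which encodes the enzyme that makes dopamine from L-DOPA, had 707, 335 and 231 in the mutants and 1952, 1434 and 2198 in the wild types (-2.26 ± 0.37, adjusted p = 0.0108, and 0.0548 without mutant 2). Mutant 3 was the lowest library for both of these genes.

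Several programmes had few calls. Of 28 interferon-responsive genes, 1 rose and none fell (median 0.13), and the 1 that rose, the tetherin gene Bst2, had 1767, 2067 and 2537 in the mutants and 1494, 1475 and 1467 in the wild types (0.51, adjusted p = 0.0286). That call was lost without mutant 2 (0.0936), wild type 1 (0.0643), wild type 2 (0.0855) or wild type 3 (0.0714), and 8 members passed without mutant 1. The antiviral gene Ifit1 was spread in both groups, with 195, 492 and 692 in mutants 1 to 3 and 314, 264 and 435 in the wild types. The list of 20 glucocorticoid-responsive genes, also built with results known, had 1 rise, that of Cdkn1a, and 1 fall, that of the metallothionein Mt1 (median -0.37). The call of Mt1 (adjusted p = 0.0494) was lost without mutant 1 (0.0926), mutant 2 (0.154), wild type 1 (0.112), wild type 2 (0.103) or wild type 3 (0.0602), and that of Cdkn1a as given above.

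Hypoxia and glycolysis genes had 2 rises and 5 falls among 31 tested (median 0.02). Both stable calls were falls of genes induced by hypoxia. Ndrg1 had 1077, 1260 and 1120 in the mutants and 2535, 2154 and 2229 in the wild types (-1.0 ± 0.09, adjusted p = 0.00191), and Bnip3, a mitophagy receptor, had 283, 301 and 246 in the mutants and 677, 551 and 561 in the wild types (-1.10 ± 0.13, adjusted p = 0.00397). Of 27 respiratory chain genes 1 passed, Uqcrc1 (0.18, adjusted p = 0.0472), a call lost without mutant 2 (0.134), mutant 3 (0.114), wild type 1 (0.1), wild type 2 (0.102) or wild type 3 (0.119).

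Among 24 immediate early and dissociation genes, 1 rose and 1 fell (median -0.18), and Fos and Jun did not pass. Of 18 leukocyte adhesion and chemokine genes, 1 rose and 3 fell (median -0.31), with a stable fall of the adhesion molecule Madcam1 (-1.33 ± 0.16, adjusted p = 0.0043). Of 21 endothelial transcription factors, 2 rose and 1 fell (median 0.03), and Tbx1 alone was stable (0.52 ± 0.08, adjusted p = 0.00972, and 0.0971 with the untreated libraries in the fit). These lists lay at or below the 17.8% of all tested genes that were called, apart from the leukocyte list at 22.2% and the hypoxia list at 22.6%.

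Marker lists of cells other than endothelium had lower mean sums in the mutants, although single libraries of the groups overlapped for several lists. The microglia list of 11 genes summed to 15287, 12864 and 20852 in mutants 1 to 3, against 42840, 29022 and 21774 in wild types 1 to 3, and 6 of its genes fell with none higher (median -1.0). Mutant 3 and wild type 3 were close for these markers, and wild type 1 stood apart. None of the 6 falls, which included Cx3cr1 and Aif1, was stable, and the falls numbered 0 without mutant 2, 1 without wild type 2, 4 without mutant 1 or wild type 1, and 8 without mutant 3 or wild type 3. The pericyte list of 12 genes summed to 92901, 70443 and 61402 in the mutants and 121093, 97315 and 89036 in the wild types, with 4 falls and 1 rise (median -0.72), the rise being that of Mcam, which is also on the tip cell list. No pericyte fall was stable. The pericyte falls numbered 0 without mutant 2, wild type 1 or wild type 2, 1 without mutant 3, 3 without wild type 3 and 10 without mutant 1.

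Fibroblast markers summed to 6428 to 9616 in the mutants, against 11469 to 14019 in the wild types, and 4 of 7 tested fell, Col1a1 and Pdgfra in a stable way (for Pdgfra, adjusted p = 0.259 with the untreated libraries in the fit). Astrocyte, neuron and oligodendrocyte lists each had 2 falls, of 10, 10 and 8 genes tested, and no rise. None of these falls was stable. Each of these lists had 0 falls without wild type 2, and they had 8, 5 and 6 without wild type 1. The sum of 7 choroid plexus and ependyma markers, mostly Ttr, was 6901 to 30741 in the mutants, against 25246 to 93060 in the wild types, and none of the 6 tested passed. Erythroid markers summed to 14269 to 36475 in the mutants, against 33657 to 54621 in the wild types with no call among 5 tested, Hbb-bs was listed at 0 in all 6 libraries, and so was the neutrophil gene Elane. Platelet markers summed to at most 732 in the mutants and 959 in the wild types, neutrophil markers to at most 181 in the mutants and 426 in the wild types, and lymphocyte markers to at most 294 in the mutants and 441 in the wild types. Of these lists, the neutrophil one had 1 fall, which was not stable. The smooth muscle list, with 1 fall of 5 tested that was not stable, summed to 2050 to 3705 in the mutants, against 3475 to 5099 in the wild types.

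The part that these lower marker sums have in the falls reported above was not tested. They stand beside the falls of Col1a1, Angpt1, Spp1, Syngr1 and Tnc, genes that are known to be expressed outside the endothelium.

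**Figure D3:**
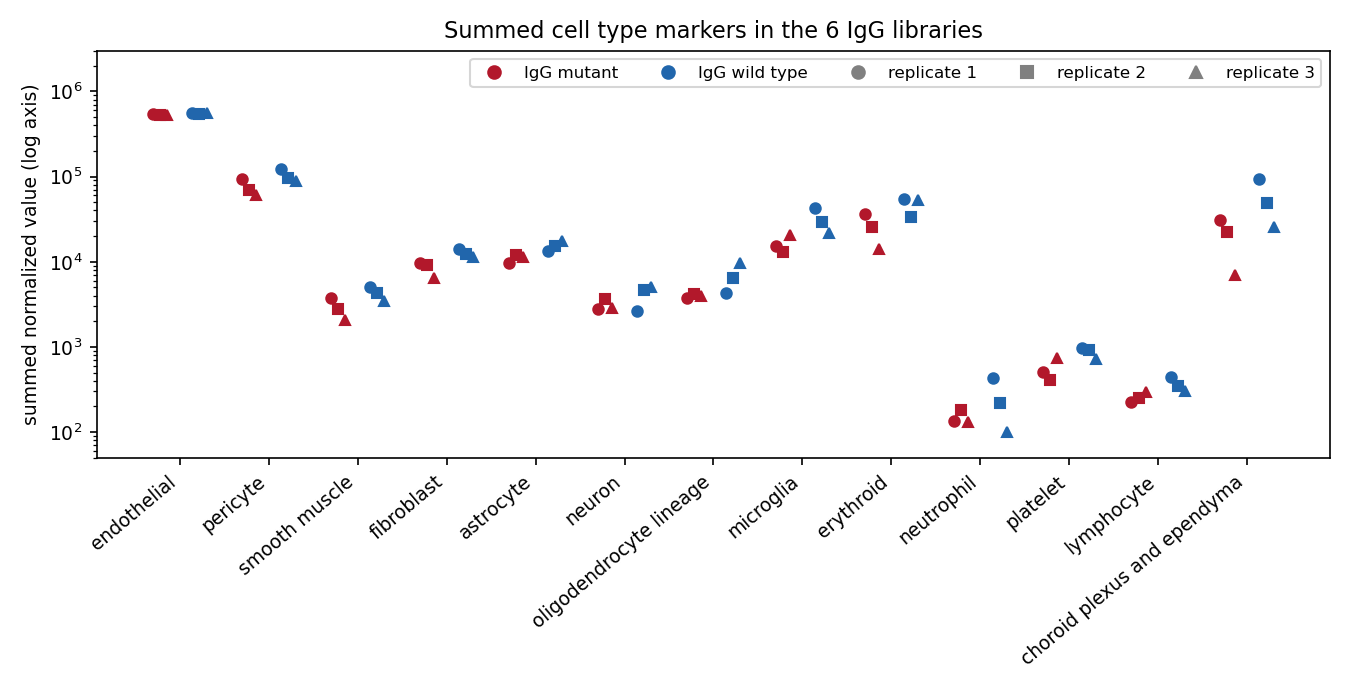
Summed normalized values (log axis) of 13 cell type marker lists in the 3 IgG mutants (red, left in each pair) and 3 IgG wild types (blue, right), with symbols for the replicate. Endothelial sums lie at 529995 to 562014 in all 6 libraries, while microglia sums reach 20852 at most in the mutants and 42840 in the wild types.

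Genes called between untreated mutants and untreated wild types were then followed into the IgG libraries. In the untreated cohort, 4620 of 14012 tested genes were called (33.0%), 2409 higher (17.2%) and 2211 lower (15.8%), and the 2 comparisons share no library. Of the 4566 untreated calls that were tested in the IgG libraries, 4380 (95.9%) had the same sign there, 1801 were also called in that direction and 1 was called in the opposite one. Among all genes tested in the IgG libraries, 9.67% were called higher and 8.12% lower. The share of all genes with the same sign in both cohorts is not given here. The shared calls are 39.4% of the untreated calls and 72.8% of the 2475 IgG calls tested in both cohorts, and they numbered 410 without IgG mutant 2, 731 without wild type 2, 897 without wild type 3, 958 without mutant 3, 1115 without wild type 1 and 2272 without mutant 1. In the direction of the untreated change, the median of these 4566 genes was 0.32 in the IgG cohort and 0.47 in the untreated cohort, whose values chose them. Marker sums of some other cells were also lower in the untreated mutants. Smooth muscle sums were 761 to 2862 in these, against 3557 to 4510 in the untreated wild types. Erythroid sums were 11533 to 18686 against 31173 to 44938, and choroid plexus and ependyma sums 4049 to 26682 against 29835 to 146419. The untreated groups overlapped for the other lists. The part of these markers in the shared signs and in the score below was not tested.

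For each library, a signature score was formed by averaging log2 values over the untreated cohort's higher genes and subtracting the average over its lower genes, set to 0 at the mean of the wild types of the same table. IgG mutants 1, 2 and 3 scored 0.61, 0.88 and 1.19, and IgG wild types 1, 2 and 3 scored 0.02, -0.002 and -0.02. The untreated mutants scored 1.00 to 1.79 and the untreated wild types -0.18 to 0.14. The IgG mutants thus reached 45.3%, 65% and 87.9% of the mean shift of the untreated mutants. The untreated mutants defined the score and were therefore favoured by it. They were also uneven, with untreated mutants 1 to 3 at 79%, 94.2% and 73.8% of that mean shift. Untreated mutants 4 and 5, whose column names carry a library code, lay at 121% and 132% and raised the mean. Beside untreated mutants 1 to 3 alone, the IgG mutants therefore lie closer than these shares of the mean show.

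**Figure D4:**
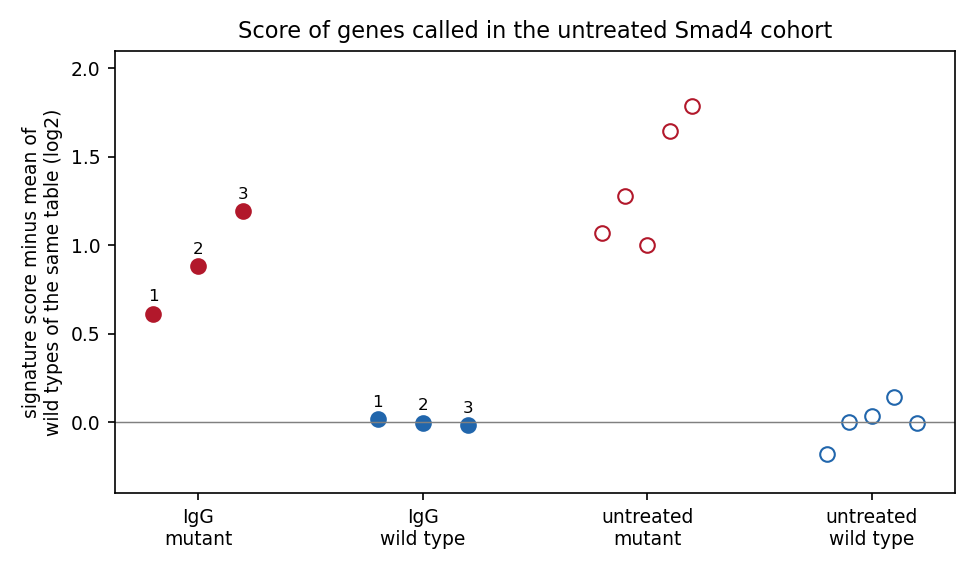
Signature score of each library (log2, minus the mean of the wild types of its own table) for IgG mutants and IgG wild types (filled, numbered by replicate) and for untreated mutants and untreated wild types (open). The IgG mutants lie at 0.61, 0.88 and 1.19, and mutant 3 alone falls within the range of the untreated mutants, 1.00 to 1.79. The upper part of that range comes from untreated mutants 4 and 5, whose column names carry a library code.

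The difference between the effects was tested in 1 fit over all 16 libraries, as the change in the IgG cohort minus that in the untreated cohort. Only 1 of 14535 genes passed (0.00688%), and 954 (6.56%) had an unadjusted p under 0.05. Antibody, cohort and table cannot be told apart in this design. The gene, 2210418O10Rik, was singled out after its values were seen. It had 274, 162 and 78.8 in the IgG mutants and was listed at 0 in all 3 IgG wild types, against 67.3 to 403 in the untreated mutants and 141 to 472 in the untreated wild types (adjusted p = 0.0123 for the difference). No gene passed without IgG wild type 1, 2 or 3 or without IgG mutant 2, 2 genes passed without IgG mutant 1 or 3, and 4 without untreated wild type 3.

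The intervals for that difference varied in width among individual genes of interest. Angpt2 changed by 0.88 in the IgG cohort and by 2.61 in the untreated cohort, a difference of -1.73 (unadjusted 95% interval -2.91 to -0.55, adjusted p = 0.695). Cdkn1a differed by -0.83 (interval -1.49 to -0.17, adjusted p = 0.698). For Acvrl1 the difference was -0.03 with an interval of -0.19 to 0.14 (adjusted p = 0.975).

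Lists can be set side by side in the same way, as values without a test. Their call counts are not on one footing, with 3 libraries per group in the IgG cohort and 5 in the untreated cohort. Of all genes tested, 9.67% were called higher and 8.12% lower in the IgG cohort. In the untreated cohort these shares were 17.2% and 15.8%. The interferon list had a median of 0.13 and 1 call in the IgG cohort, and a median of 0.99 and 21 higher of 28 in the untreated cohort, and all 28 differences were below 0, from -1.37 to -0.02, none of them called and 10 with an unadjusted p under 0.05. The glucocorticoid list had a median of -0.37 in the IgG cohort and 0.52 in the untreated cohort, where 10 rose and 2 fell, and 19 of 20 differences were below 0. The hypoxia list had a median of 0.02 in the IgG cohort and 0.34 in the untreated cohort, with 17 higher and 2 lower there. Over all genes the median difference was 0.02.

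The p53 list had a median of 0.79 with 21 rises in the IgG cohort and of 1.00 with 30 rises in the untreated cohort, and 32 of 40 differences were below 0. Tip cell genes had 13 rises in the IgG cohort and 21 in the untreated cohort, and 23 of 24 differences were below 0. Cell cycle genes ran the other way, with 35 rises in the IgG cohort and 31 in the untreated cohort, and 40 of 43 differences lay above 0, between -0.09 and 0.29. None of these differences was called. The counts of rises stand beside 9.67% of all genes called higher in the IgG cohort and 17.2% in the untreated cohort.

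**Figure D5:**
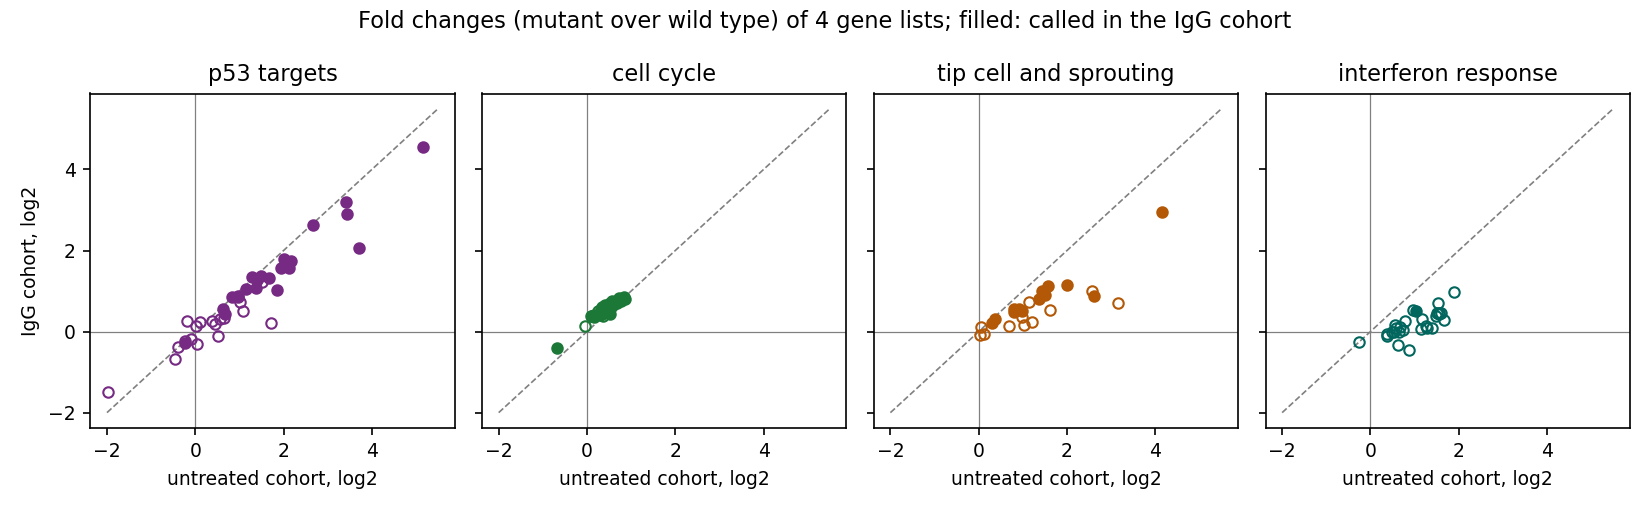
Log2 fold change, mutant over wild type, of the members of 4 gene lists in the IgG cohort (vertical axis) against the untreated cohort (horizontal axis); filled points were called in the IgG cohort and the dashed line marks equal change. Interferon genes lie below the line, at up to 0.98 in the IgG cohort, and cell cycle genes lie on or just above it.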

How the data were processed

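Messenger RNA of PECAM-captured brain endothelial cells was sequenced from TruSeq libraries, per the labels' protocols. The deposited values are a normalized signal per gene and not raw counts, since 49.5 to 70.4% of low values in the IgG libraries lay within 0.05 of a whole multiple of 1 step and 18.6 to 25.2% of all values did. The genome build was mm10 per the submitters' processing notes, while the sources used here do not name the aligner, counter or normalization. The inferred depth is a rough guide, and no interval was made from it. Of 24972 rows 26 with damaged or repeated names were left out, 98.1% of the rest matched GENCODE M21, and 3 columns of per-sample values that match no sample were not used. Genes with at least 20 in at least 3 of 6 IgG libraries (5 of 10 untreated, 3 of 16 in the joint fit of both cohorts) were tested on log2(value + 2) with limma 3.58.1 (R 4.3.3, intensity trend), two-sided, with Benjamini-Hochberg adjustment over all genes tested and a threshold of 0.05. Fold changes on this scale understate changes of low genes. An exact permutation test of 3 against 3 cannot go below 0.1, so none was used. The script was tested on simulated data. Replicate numbers were not treated as pairs in the main fit, and whether they pair the samples was not established. The joint fit gave the difference of the effects.

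Lists (41, with 652 genes) and members were chosen with earlier results of these data known. Named by rule were Smad4, Eng, Acvrl1, Angpt2, Tek and Id1 to Id3, the 10 largest called rises and falls without overlap and with a mean of at least 100 in the higher group, up to 4 called members with the smallest adjusted p per list, and the 5 largest differences between cohorts each way. Other genes given values, such as Smad6, Kdr, Mdm2, Slc16a1, Cldn5 and Ifit1, were chosen after their values were seen. Alternatives covered pseudocount, filter, scaling, spread, covariate, block and single libraries. Results for some genes are not reported here.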

Additional observations from a re-analysis of the deposited data

Results flagged for a closer look

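The effect of Smad4 loss on 2210418O10Rik differed between the cohorts in the test of the difference itself, with an adjusted p of 0.0123 (limma). The IgG mutants had 274, 162 and 78.8 and the IgG wild types were listed at 0 in all 3 libraries, while the untreated mutants had 67.3 to 403 and the untreated wild types 141 to 472. A value listed at 0 in a table without counts can be a failed estimate, so no fold is given.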

How the results depend on the processing

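The count of 2480 genes called in the IgG comparison was 1130 without an intensity trend, 1551 with the untreated libraries in the fit and 1464 with Xist as a covariate, and leaving out 1 library gave 471 to 3073. Distinct genes of the pathway lists that were called, 199 in all, numbered 102 without a trend and 130 with Xist, and 60 to 253 with 1 library left out. Smad4 kept its call in every setting run, at -1.58 to -1.21 with 1 library left out. The untreated count of 4620 was 2450 in the libraries without a library code in their column names, a setting chosen after seeing the data, and 3358 to 5547 with 1 library left out. The 1 difference between cohorts became 0 with a pseudocount of 8, and 0 to 4 with 1 library left out. The 1801 shared calls were 410 to 2272 with 1 library left out. Among the 980 untreated calls of at least 2-fold that were tested, 444 (45.3%) were shared, beside 39.4% of all 4566. Of all genes tested in the IgG libraries, 9.67% were called higher and 8.12% lower. Of 130 called named genes, 80 lost the call in at least 1 setting and none reversed, and without mutant 2 the loss was 72 of 129. With the replicate number as a block, 2451 genes were called, 2010 of them among the 2480, Smad4 had an adjusted p of 0.00675 and 205 distinct list genes were called. Correlations of same-numbered deviations were 0.0608, 0.0282 and -0.073. Untreated columns carry a group but no replicate that matches a label, so the block was not run for the untreated count and for the difference. The causes were not tested.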
